A study of Mus musculus with 6 samples.

Results

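The endoplasmic reticulum (ER) is where secreted and membrane proteins enter the secretory route, fold and are inspected, and 37 genes of that work were described here in mouse tongue. They encode ER chaperones, disulfide and lectin folding factors, sensors of unfolded protein, parts of ER-associated degradation, and parts of the channel through which new proteins enter. The genes were chosen by name from these functions, with earlier results of these data known. Every array probe whose accession belongs to a listed gene was taken, which gave 47 of the 55681 non-control probes. Of these, 46 were tested, and all 37 genes were well above background on all 6 arrays, among 26256 genes and unnamed probes tested in all.

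RNA from tongue tissue of 6 mice on the C57Bl6 background was hybridised to single-colour Agilent arrays. All 6 animals were iDek mice, in which doxycycline (DOX), an antibiotic used to switch transgenes, is meant to induce Dek both ubiquitously and in squamous cells. Dek is a chromatin protein. The no DOX group was 3 untreated iDek mice, and the DOX group was 3 iDek mice on DOX for 2 weeks. The question is how expression in tongue changes with DOX in these animals. Both groups carry the transgene and mice lacking it were not analysed here, so DOX and Dek induction cannot be told apart. The promoter of the transgene and the age of the animals are not given in the sources used here. Dek, read by 1 probe, differed by 0.17 ± 0.11 (SE) on the log2 scale with no call (limma, adjusted p = 0.456), and whether that probe reads the transgene is not given. Between 56.0% and 58.3% of probes were well above background on each array and no spot was saturated. Precision here is set by how many arrays there are. All 12 skeletal muscle markers and all 12 suprabasal keratinocyte markers on the lists used passed the filter on dim probes. That does little to check the tissue label, since 30933 of all 55681 non-control probes passed it, as did all 10 fibroblast markers.

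As background, when unfolded protein builds up in the ER, the sensors IRE1, PERK and ATF6 release the chaperone BiP and start the unfolded protein response. ATF6 and the spliced form of XBP1 then switch on chaperones, folding enzymes and degradation factors, while PERK slows translation and acts through ATF4. Cells that secrete heavily, such as gland acinar cells and plasma cells, keep much of this machinery high at all times.

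The ER genes lay higher with DOX as a group, led by the BiP and GRP94 chaperones, Creld2 and Derl3, while the sensors and most of the protein entry genes showed small differences. The mean was higher with DOX for 34 of the 37 genes, where 49% of all genes tested had a higher mean (12853 of 26256). Their median log2 difference was 0.41 (interquartile range 0.18 to 0.69), against -0.01 over all genes tested (interquartile range -0.19 to 0.17). Creld2 alone passed the test over all probes (limma with Benjamini-Hochberg adjustment, threshold 0.05), which is 1 of 37 members, or 2.70%, beside 0.404% of all genes called in either direction and 0.278% called as higher. No member fell. At an unadjusted p under 0.05, 20 of 37 were higher and 0 lower, where 9.05% of all genes tested were higher by that rule. In 20 of 37 genes the 3 DOX arrays all lay above the 3 arrays without DOX, which held for 12.7% of all genes tested. A log2 difference of at least 1 was seen for 8 of 37 members and 1.81% of all genes. The 37 genes were chosen with earlier results of these data known, so their shares beside those of all genes are a description and not a test. Genes of one tissue vary together, so these 37 are not independent of each other. In tissue RNA, more cells of a type and more RNA per cell cannot be told apart.

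**Figure D1:**
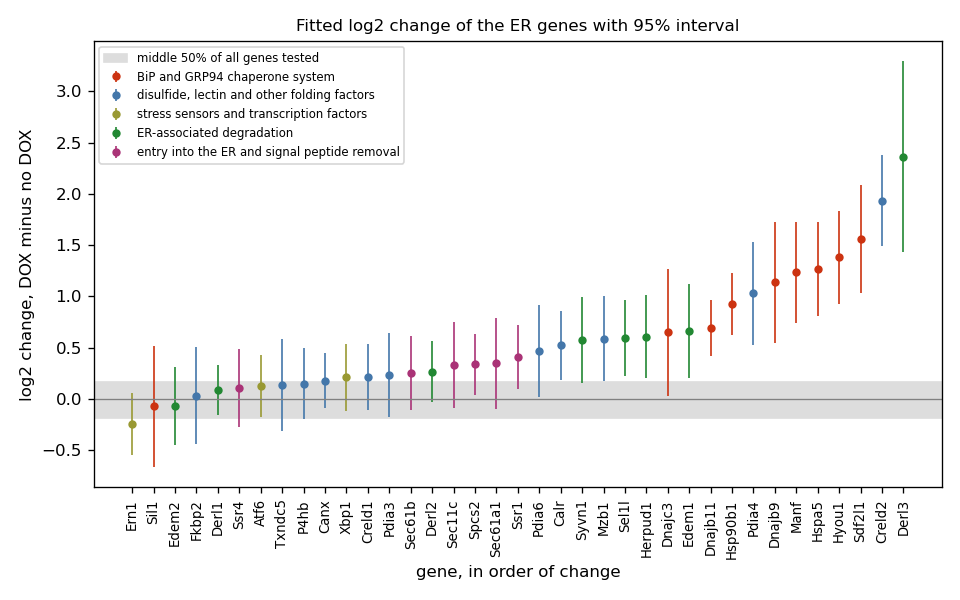
Fitted log2 difference (DOX minus no DOX, vertical axis) of each of the 37 ER genes in order of size (horizontal axis), with points for the estimate, bars for its 95% interval (n = 3 and 3 arrays) and colours for the role of the gene. The grey band is the middle 50% of all genes tested, from -0.19 to 0.17, and 28 of the 37 genes lie above its upper edge, with Derl3 (2.36) and Creld2 (1.93) highest.

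The promoters of these genes were searched for the ER stress element, the control sequence known from BiP and its relatives, and the stretches that hold it are shown. The element is CCAAT and CCACG held 9 bases apart, and as background it is bound by NF-Y at the CCAAT box and by ATF6 at the other end. RefSeq promoter sequences (build GRCm38.p6) were matched by symbol for 29 of the 37 genes, and both strands of the 250 bases before each start were searched. The element was found upstream of 9 of the 29 genes (31%), and in 0.113% of all promoters in the table (37 of 32851). These 9 are Hspa5, Hsp90b1, Creld2, Derl3, Calr, Canx, Dnajc3, Pdia6 and Syvn1. The first share is of genes and the second of promoters, and a gene can have several promoters. The 29 genes had 34 promoters, and the 32851 promoters belonged to 27025 genes. Capitals mark the element in the following stretches, each read 5′ to 3′ on the strand of the gene, so an element on the other strand reads CGTGG first.
Hspa5 (chr2:34772005-34772063, plus strand): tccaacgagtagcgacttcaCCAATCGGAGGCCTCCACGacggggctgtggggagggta
Hsp90b1 (chr10:86705513-86705676, minus strand): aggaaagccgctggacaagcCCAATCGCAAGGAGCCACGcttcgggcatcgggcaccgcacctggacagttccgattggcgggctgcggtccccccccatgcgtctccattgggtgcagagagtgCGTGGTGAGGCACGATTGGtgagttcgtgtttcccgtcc
Creld2 (chr15:88819500-88819558, plus strand): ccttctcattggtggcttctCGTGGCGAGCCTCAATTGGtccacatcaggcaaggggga
Derl3 (chr10:75893222-75893280, plus strand): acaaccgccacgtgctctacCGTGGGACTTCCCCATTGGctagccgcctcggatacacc
Calr (chr8:84847055-84847113, minus strand): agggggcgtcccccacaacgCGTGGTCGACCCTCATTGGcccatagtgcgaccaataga
Canx (chr11:50325780-50325838, minus strand): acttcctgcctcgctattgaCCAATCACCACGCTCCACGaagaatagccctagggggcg
Pdia6 (chr12:17266471-17266529, plus strand): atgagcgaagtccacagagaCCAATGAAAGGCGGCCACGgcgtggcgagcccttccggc
Dnajc3 (chr14:118937807-118937865, plus strand): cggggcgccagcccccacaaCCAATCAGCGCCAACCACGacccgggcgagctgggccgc
Syvn1 (chr19:6046512-6046570, plus strand): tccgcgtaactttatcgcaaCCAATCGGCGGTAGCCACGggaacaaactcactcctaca
Herpud1 (chr8:94386357-94386407, plus strand): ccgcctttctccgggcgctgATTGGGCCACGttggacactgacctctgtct

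Hsp90b1 held 2 elements and the other 8 genes 1 each, 6 of the 10 on the strand of the gene and 4 on the other. The element ended between 26 and 194 bases before the start, and in all 10 the 9 bases between its parts held 6 or 7 G or C bases. Herpud1 held a shorter form, ATTGG and CCACG with 1 base between them, which was present upstream of 0.0304% of all promoters, and no member held both forms. Dnajb11 held the shorter form 8 bases after its start, outside the upstream bases. The letters TGACGTGG, a site known for ATF6 and XBP1, were found upstream of Txndc5 at 1 of its 3 starts and in 0.563% of all promoters. The 9 genes with the element had a median log2 difference of 0.65 (0.18 to 2.36), all with a higher mean and 8 with DOX arrays all above the others. The 19 genes with a promoter in the table and neither form upstream had a median of 0.25 (-0.25 to 1.56), 17 with a higher mean and 8 with groups apart. Sdf2l1, Dnajb9 and Pdia4 had differences over 1 with neither form in these letters. The 8 genes with no promoter in the table, Hyou1 (1.38) and Manf (1.24) among them, had a median of 0.34 (-0.08 to 1.38). Of those 8, 7 had a higher mean and 3 had groups apart, and whether they hold the element is not known here. Beside the counts of all 3 groups of genes, 49% of all genes tested had a higher mean and 12.7% had all DOX arrays higher. These medians are a description with no test, since the ER genes were chosen with their differences known. A match is a description of the letters, and binding was not measured.

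**Figure D2:**
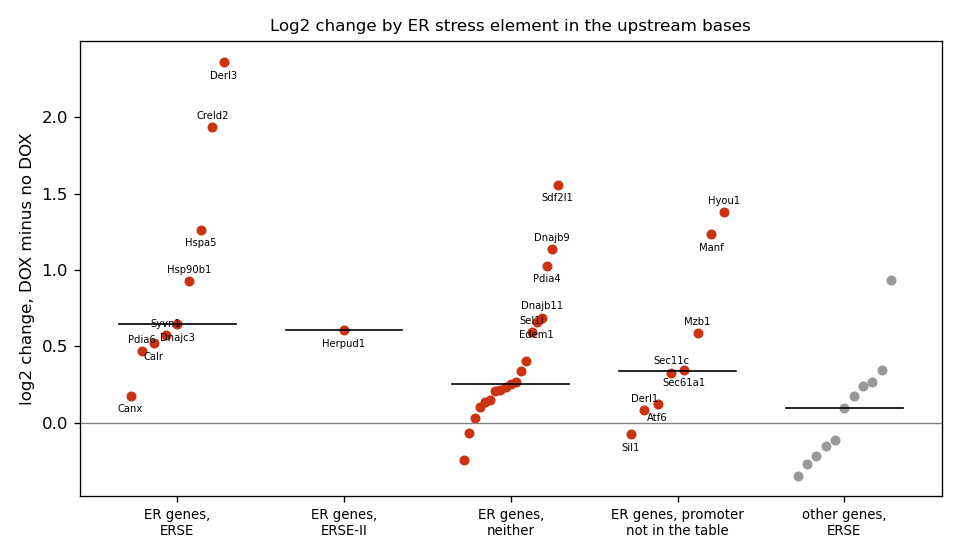
Log2 difference (DOX minus no DOX, vertical axis) of each gene, grouped by whether the ER stress element (ERSE) or its shorter form (ERSE-II) lies in the 250 bases before the start (horizontal axis), with red points for ER genes, grey points for 11 other tested genes that hold the element and lines for group medians. The 9 ER genes with the element have a median of 0.65 and the 11 other genes a median of 0.10, and in the group with neither form only genes over 0.5 are named.

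The chaperone system built around BiP and GRP94 was the role with the highest median (1.13 over 9 genes, -0.08 to 1.56). The mean was higher with DOX for 8 of 9 genes, those 8 had groups that did not overlap, and 0 of 9 passed the test. Over all genes tested, 49% had a higher mean and 12.7% had all DOX arrays higher. Values below are normalised log2 signals, that is, the log2 of the processed signal minus the 75th percentile of the array, for replicates 1 to 3 of each group. Hspa5 encodes BiP, the main ER member of the HSP70 family and the partner that holds the sensors inactive. It stood at 5.73, 5.36 and 5.18 without DOX and at 6.80, 6.39 and 6.87 with DOX. Every DOX array lay above every array without DOX, with a log2 difference of 1.26 ± 0.19 (SE) (2.40-fold, 95% interval 1.74 to 3.31) that missed the threshold (limma, adjusted p = 0.0629). Hsp90b1 encodes GRP94, the ER member of the HSP90 family, and its signals were 4.80, 4.63 and 4.48 without DOX and 5.62, 5.43 and 5.64 with DOX. The groups were apart, the values within each lay close together, and the difference was 0.93 ± 0.13 (SE) (adjusted p = 0.0511). Hyou1 encodes GRP170, which helps BiP exchange nucleotide, and read -3.19, -3.72 and -3.55 without DOX and -2.08, -2.38 and -1.87 with DOX. Its DOX arrays were all higher, by 1.38 ± 0.19 (SE) (adjusted p = 0.0521), and its probe was dim: with normexp background correction the difference was 0.51 (adjusted p = 0.0442).

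Sdf2l1 encodes a partner of the co-chaperone ERdj3 and had the largest difference of this role. Its signals were 1.40, 0.72 and 0.86 without DOX and 2.48, 2.34 and 2.84 with DOX, so that replicate 1 without DOX was the highest of its group and still under every DOX array. The log2 difference was 1.56 ± 0.22 (SE) (2.95-fold, adjusted p = 0.0533). Manf, a small secreted ER protein that binds BiP, stood at 3.06, 2.46 and 2.41 without DOX and at 3.85, 3.69 and 4.09 with DOX. Here too no DOX replicate 1 came nearest to the DOX arrays without reaching them, and the difference was 1.24 ± 0.21 (SE) (adjusted p = 0.0732). Dnajb11, which is ERdj3 itself, read 3.14, 2.95 and 3.00 without DOX and 3.82, 3.59 and 3.75 with DOX. Its groups were apart by a smaller margin of 0.69 ± 0.11 (SE) (adjusted p = 0.0728), and its other probe was above background on no array. The remaining HSP40 genes Dnajb9 (ERdj4) and Dnajc3 (p58IPK) had differences of 1.13 ± 0.25 (SE) and 0.65 ± 0.26 (SE), with groups apart in both and adjusted p of 0.102 and 0.251. The other probe of Dnajb9 gave 1.09 ± 0.23 (SE). Sil1, another nucleotide exchange factor of BiP, was at -0.08 ± 0.25 (SE) with overlapping groups, and its sign turned when replicate 1 of either group or DOX replicate 2 was left out.

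Among the folding factors that act on disulfides, sugars and prolines, all 11 genes had a higher mean with DOX, 1 rose and 10 did not pass (median 0.24, 0.03 to 1.93). Creld2, an ER protein with EGF-like domains that is induced by ER stress, was the gene that rose. Its signals were 3.99, 3.58 and 3.70 without DOX and 5.74, 5.39 and 5.95 with DOX. The lowest DOX array lay well above the highest array without DOX, and the rise was 1.93 ± 0.18 (SE) on the log2 scale, or 3.82-fold with a 95% interval of 2.82 to 5.18 (limma, adjusted p = 0.0219). Permuting the array labels of Creld2 in all 20 ways (exact, two-sided) gave p = 0.1, the floor for 3 against 3 arrays. Any gene with groups apart reaches that floor, so it does not single out Creld2. When single arrays were left out the call was lost in 5 of 6 fits: the adjusted p of Creld2 was 0.0574, 0.0918 and 0.0901 without no DOX replicate 1, 2 or 3, 0.0806, 0.0440 and 0.0501 without DOX replicate 1, 2 or 3, and the log2 rise stayed between 1.80 and 2.09. Its relative Creld1, which is not known as a stress gene, stood at 1.05, 1.17 and 1.05 without DOX and at 1.25, 1.54 and 1.11 with DOX. The Creld1 groups overlapped, with a difference of 0.21 ± 0.14 (SE) (adjusted p = 0.452).

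**Figure D3:**
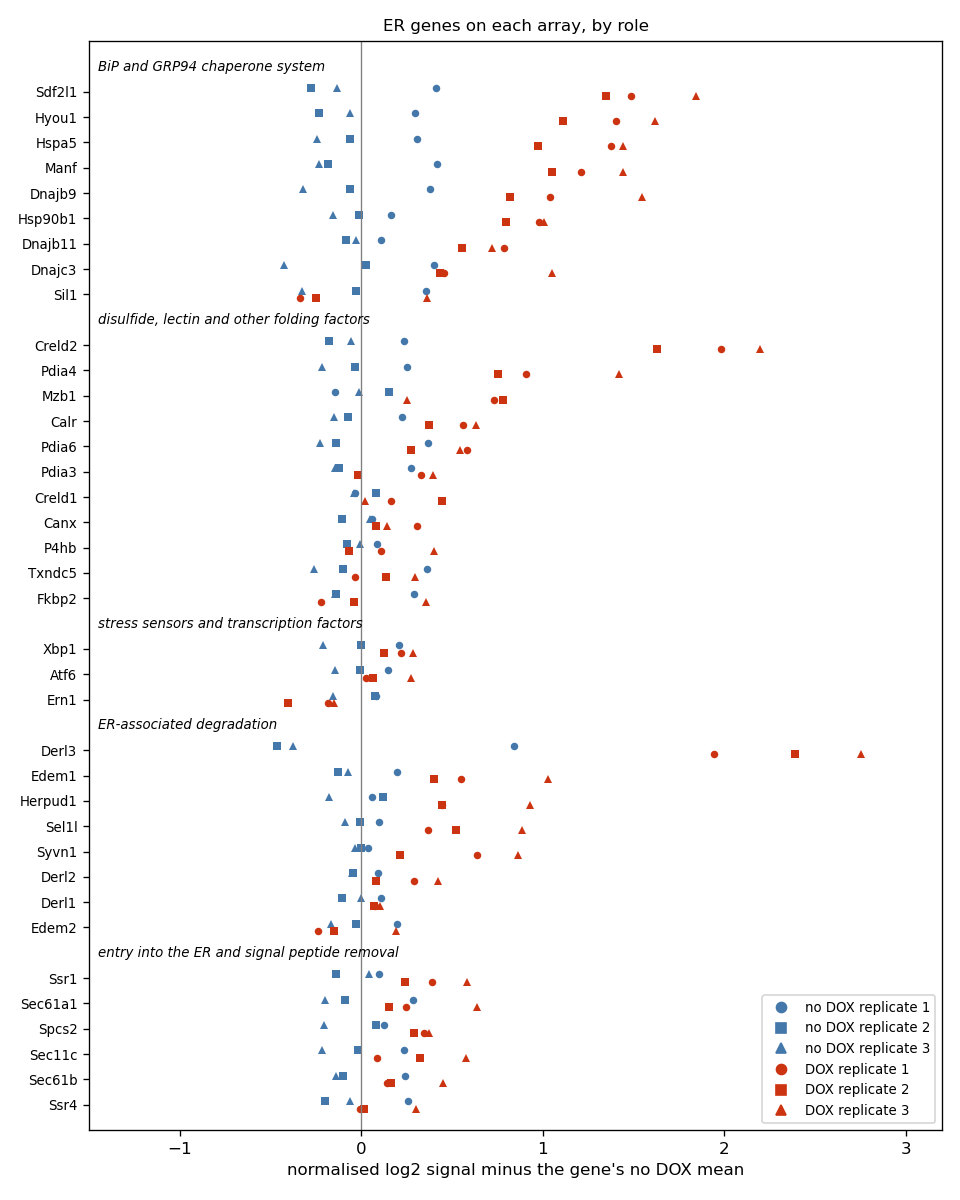
Normalised log2 signal of each ER gene on each array, minus the mean of the gene over the 3 no DOX arrays (horizontal axis), with genes in rows under their role, blue for no DOX, red for DOX and marker shape for the replicate number. In the chaperone rows from Sdf2l1 to Dnajc3 and in the rows of Creld2, Pdia4 and Derl3 all red points lie to the right of all blue points, and in the rows of the sensors Xbp1, Atf6 and Ern1 the colours overlap.

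The protein disulfide isomerases differed among themselves. Pdia4, also called ERp72, stood at 1.00, 0.71 and 0.53 without DOX and at 1.66, 1.5 and 2.17 with DOX. Its groups were apart and DOX replicate 3 was the highest, with a difference of 1.03 ± 0.21 (SE) (adjusted p = 0.0943). Pdia6 read 5.87, 5.37 and 5.27 without DOX and 6.09, 5.78 and 6.05 with DOX. For Pdia6 no DOX replicate 1 lay above DOX replicate 2, so the groups overlapped, and the difference was 0.47 ± 0.19 (SE) (adjusted p = 0.249), while its other probe gave 0.53 ± 0.17 (SE). Smaller values were found for Pdia3, which works with the lectin chaperones (0.24 ± 0.17 (SE)), for P4hb, the founding isomerase and a subunit of prolyl hydroxylase (0.15 ± 0.14 (SE)), and for Txndc5 (0.13 ± 0.19 (SE)). None of these 3 had groups apart.

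The lectin chaperones calreticulin and calnexin hold newly made glycoproteins. Calr, the soluble one, stood at 4.66, 4.36 and 4.28 without DOX and at 4.99, 4.80 and 5.07 with DOX. The groups did not overlap and differed by 0.52 ± 0.14 (SE) (limma, adjusted p = 0.140). Canx, the membrane-bound one, read 4.13, 3.97 and 4.12 without DOX and 4.38, 4.15 and 4.22 with DOX. Its groups were also apart but by a narrow margin, with a difference of 0.18 ± 0.11 (SE) (adjusted p = 0.447). Mzb1, a BiP cofactor of B and plasma cells, was dim, at -4.10, -3.80 and -3.97 without DOX and -3.23, -3.18 and -3.71 with DOX. Its DOX arrays were all higher, by 0.59 ± 0.17 (SE) (adjusted p = 0.160), and with normexp by 0.15. Fkbp2, a prolyl isomerase, was at 0.03 ± 0.20 (SE) with overlapping groups, and its sign turned under several alternatives.

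The degradation genes had a median of 0.58 over 8 genes (-0.07 to 2.36), 7 with a higher mean and 0 past the threshold. In 5 of the 8 all DOX arrays were higher, against 12.7% of all genes tested. Derl3, a derlin of the channel through which misfolded proteins leave the ER and one found mainly in secretory cells, had the largest difference of all 37 genes. It stood at -0.03, -1.34 and -1.25 without DOX and at 1.07, 1.52 and 1.88 with DOX. No DOX replicate 1 was over 1 log2 unit above its group mates and still under all DOX arrays, and the difference was 2.36 ± 0.39 (SE) (5.15-fold, 95% interval 2.71 to 9.79, limma, adjusted p = 0.0704). The other derlins did not share that size: Derl2 read 4.16, 4.03 and 4.02 without DOX and 4.36, 4.15 and 4.49 with DOX, a difference of 0.26 ± 0.12 (SE) (adjusted p = 0.309). Derl1 was at 0.08 ± 0.10 (SE), and both had overlapping groups. The 2 further probes of Derl2 gave 0.14 and 0.36, and the second probe of Derl1 gave 0.11.

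Sel1l and Syvn1 encode the adaptor and the ubiquitin ligase (HRD1) of one membrane complex. Sel1l stood at 1.05, 0.94 and 0.86 without DOX and at 1.32, 1.47 and 1.83 with DOX. Its groups were apart with DOX replicate 3 highest, and the difference was 0.59 ± 0.16 (SE) (limma, adjusted p = 0.135), or 0.37 within slide row 1. Syvn1 read 4.46, 4.42 and 4.39 without DOX and 5.06, 4.64 and 5.29 with DOX. The 3 values without DOX were nearly equal and all under the DOX arrays, which were higher by 0.57 ± 0.17 (SE) (adjusted p = 0.169). Herpud1, a stress-induced membrane protein that joins that complex, stood at 4.17, 4.24 and 3.94 without DOX and at 4.56, 4.56 and 5.04 with DOX. Again the groups were apart and DOX replicate 3 stood highest, with a difference of 0.61 ± 0.17 (SE) (adjusted p = 0.149). Edem1, which helps pick misfolded glycoproteins for removal, read 0.93, 0.60 and 0.66 without DOX and 1.28, 1.13 and 1.76 with DOX, with groups apart and a difference of 0.66 ± 0.19 (SE) (adjusted p = 0.156). Its relative Edem2 was at -0.07 ± 0.16 (SE) with overlapping groups, and its sign turned when no DOX replicate 1 or DOX replicate 1 was left out.

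For the stress sensors and the factor they activate, 0 of 3 genes passed the test and none had groups apart (median 0.12). Xbp1, whose message IRE1 splices, stood at 6.15, 5.94 and 5.73 without DOX and at 6.16, 6.06 and 6.22 with DOX. The groups overlapped and the difference was 0.21 ± 0.14 (SE) (limma, adjusted p = 0.455), and the probe is not known to separate the spliced form. Atf6 read -0.55, -0.70 and -0.84 without DOX and -0.67, -0.63 and -0.42 with DOX, with overlap and a difference of 0.12 ± 0.13 (SE) (adjusted p = 0.665). Ern1, which encodes IRE1 alpha, stood at -0.01, -0.02 and -0.25 without DOX and at -0.27, -0.49 and -0.24 with DOX. Ern1 was the lowest of the 37 differences at -0.25 ± 0.13 (SE) (95% interval -0.55 to 0.05, adjusted p = 0.345), and its groups overlapped. Splicing, cleavage and phosphorylation of these proteins were not measured.

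Genes of protein entry had small differences of like size, with a median of 0.33 over 6 genes (0.10 to 0.41). All had a higher mean and 0 were past the threshold. In 2 of the 6 all DOX arrays were higher, against 12.7% of all genes tested, and 6 genes are too few to set those shares apart. Ssr1, a subunit of the translocon-associated complex, stood at 3.52, 3.28 and 3.46 without DOX and at 3.81, 3.66 and 4.0 with DOX. All DOX arrays were higher, the difference was 0.41 ± 0.13 (SE) (limma, adjusted p = 0.185), and its other 2 probes gave 0.41 and 0.40. Spcs2, a signal peptidase subunit, read 4.03, 3.98 and 3.69 without DOX and 4.24, 4.19 and 4.27 with DOX. Its groups were apart by 0.33 ± 0.12 (SE) (adjusted p = 0.222), but its other probe gave -0.05 ± 0.09 (SE), the only disagreement in sign among 7 members with several tested probes. Sec61a1, the pore of the channel, stood at 5.18, 4.81 and 4.70 without DOX and at 5.14, 5.05 and 5.53 with DOX. The groups overlapped, with a difference of 0.35 ± 0.19 (SE) (adjusted p = 0.368).

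Sec61b, the small channel subunit, read 6.15, 5.81 and 5.76 without DOX and 6.05, 6.07 and 6.35 with DOX, a difference of 0.25 ± 0.15 (SE), and its other probe gave 0.09 ± 0.11 (SE). Sec11c, a catalytic subunit of signal peptidase, stood at 2.59, 2.34 and 2.14 without DOX and at 2.44, 2.68 and 2.93 with DOX, a difference of 0.33 ± 0.17 (SE) that was 0.09 within slide row 1. Ssr4 read 5.30, 4.84 and 4.98 without DOX and 5.03, 5.06 and 5.34 with DOX, a difference of 0.10 ± 0.16 (SE). In these 3 genes no DOX replicate 1 lay within the range of the DOX arrays, and their adjusted p were 0.422, 0.365 and 0.783.

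The arrays of a group did not carry the pattern equally. The mean of the 37 genes was 2.82, 2.53 and 2.46 in the untreated mice (replicates 1 to 3) and 3.12, 3.04 and 3.37 in the treated ones. The 3 DOX arrays lay above the others, with no DOX replicate 1 nearest to them and DOX replicate 3 farthest. For the BiP and GRP94 role the means were 2.60, 2.19 and 2.07 without DOX and 3.22, 3.05 and 3.51 with DOX, and for the entry role 4.46, 4.17 and 4.12 without DOX and 4.45, 4.45 and 4.74 with DOX. The entry means overlapped and the chaperone means did not. Dropping DOX replicate 3 left a median difference of 0.32 over the 37 genes, and dropping no DOX replicate 1 raised it to 0.49. On the slide, row 1 held the 3 arrays without DOX together with DOX replicate 1, while row 2 held the remaining DOX arrays. Within row 1 the median was 0.37, and Creld2 was at 1.98 (limma, adjusted p = 0.0798, with DOX replicate 1 assumed to vary like the others).

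**Figure D4:**
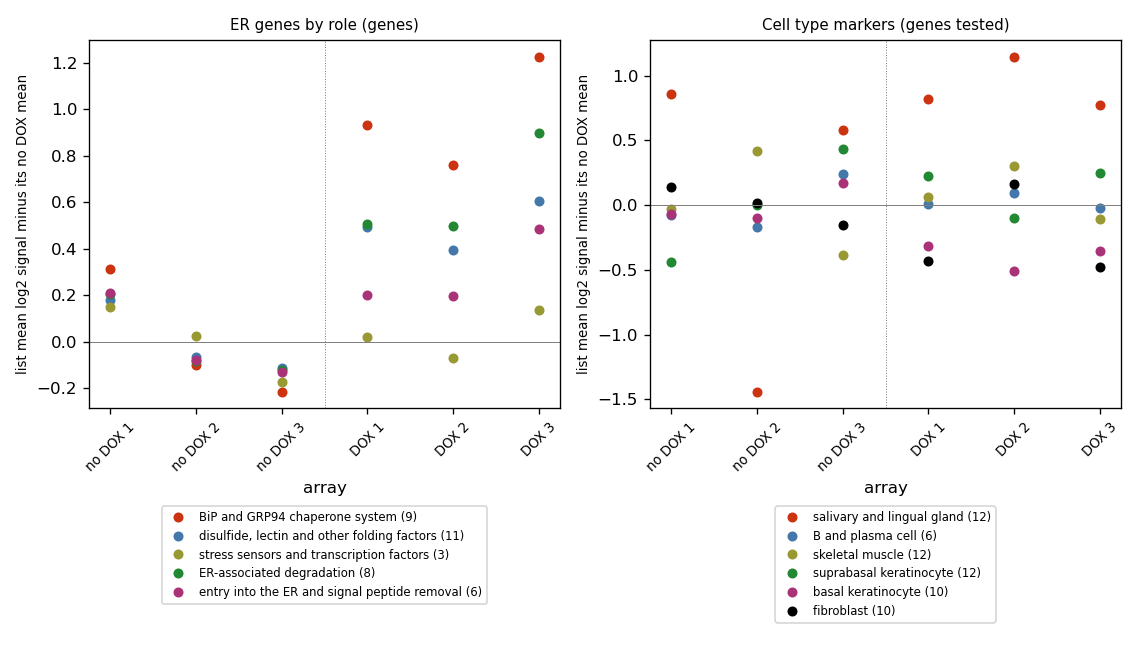
Mean normalised log2 signal of each gene list on each array, minus the mean of the list over the 3 no DOX arrays (vertical axis), by array (horizontal axis), for ER genes by role on the left and cell type marker lists on the right. On the left the chaperone, folding and degradation means of the 3 DOX arrays lie above all no DOX means, and on the right the gland list of no DOX replicate 2 lies far below every other array.

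Other genes of the same pathways, on lists that hold none of the 37, mostly lay closer to no difference, and 0 of their 112 tested genes passed the test (limma). At an unadjusted p under 0.05, 24 were higher and 3 lower, where 9.05% of all genes tested were higher. Of 22 further ER folding factors, 12 had a higher and 10 a lower mean (median 0.02). Pdia2, an isomerase best known from pancreas, was well above background only in the DOX group and passed the filter through that group. Its level in the untreated mice is thus not known. The adjusted p of its fit, 0.0769, uses signals that lie below background in the untreated mice. Its measured mean was -3.55 with DOX and -4.97 without, against a detection bound of -4.72 there. The DOX mean was 2.25-fold that bound. The bound is approximate, since it rests on the lowest signal of any probe called above background on each array. Ero1b, an oxidase that recharges the isomerases, was at 0.93 ± 0.27 (SE). The PERK and ATF4 branch had 6 of 12 genes with a higher mean and a median of 0.02. Nupr1, a stress-responsive chromatin protein, stood at 8.75, 8.91 and 8.34 without DOX and at 6.27, 6.40 and 7.56 with DOX, so all DOX arrays were lower (log2 -1.92 ± 0.36, SE, adjusted p = 0.0842). Atf3, a transcription factor induced by stress, was higher at 0.95 ± 0.25 (SE) without passing.

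Among 9 other sensors and ER stress factors the median was -0.02, with 4 genes higher. Bhlha15, or MIST1, a factor of secretory cells, stood at 1.63, 0.91 and 1.04 without DOX and at 2.49, 3.28 and 3.27 with DOX, which left the groups apart by 1.82 ± 0.28 (SE, adjusted p = 0.0648). Atf6b was at 0.44 ± 0.10 (SE). Of 21 tested genes of ER-associated degradation outside the 37, 14 had a higher mean (median 0.08), led by Rnf185 (0.42 ± 0.11, SE) and Selenok (0.43 ± 0.12, SE). Further translocation genes had a median of 0.17 over 18, with 14 higher. All DOX arrays were higher in 10 of them, which held for 12.7% of all genes tested. The signal recognition receptor subunit Srprb (0.68 ± 0.14, SE) and Ssr2 (0.61 ± 0.14, SE) led that list. For N-glycosylation 12 of 15 had a higher mean (median 0.18), with Mogs at 0.40 ± 0.11 (SE) and Dad1 at 0.32 ± 0.10 (SE). For transport from ER to Golgi 12 of 15 had a higher mean (median 0.14), with Mcfd2 at 0.59 ± 0.16 (SE) and Sec13 at 0.33 ± 0.10 (SE).

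Markers of cell types that use much ER machinery were read on the same arrays. Of 17 salivary and lingual gland markers on the array 12 were tested, 5 with a higher and 7 with a lower mean (median -0.33), and Prol1, Smr3a, Lcn11 and Prr27 were well above background on no array. The mean of the 12 lay between 3.33 and 5.63 without DOX and between 5.55 and 5.92 with DOX, with no DOX replicate 2 alone at the low end. Lpo, a secreted peroxidase, had a log2 difference of 2.55 ± 0.46 (SE, adjusted p = 0.0802), with all DOX arrays higher. Car6, a secreted carbonic anhydrase, stood at -1.67, -4.82 and -1.71 without DOX and at 1.11, 2.68 and 0.49 with DOX. It was above background on 2 of 3 arrays without DOX, so its level in that group is known only in part. The rest of the list, named after its values were seen, went both ways. Bpifa2, Amy1 and Bpifb1, which encode secreted salivary proteins, also had all DOX arrays higher. Their differences were 6.51 ± 1.64, 2.96 ± 1.13 and 3.02 ± 1.71 (SE), none past the threshold (limma, adjusted p = 0.129, 0.236 and 0.395). Their arrays without DOX lay far apart, with no DOX replicate 2 the lowest in each gene. Bpifb1, for example, stood at 8.10, 2.16 and 9.24 without DOX and at 9.47, 9.65 and 9.43 with DOX. Dcpp1, Dcpp2, Dcpp3 and Pigr had all DOX arrays lower, with differences of -0.76, -0.91, -0.72 and -0.39. Klk1 (-4.22 ± 1.92, SE), the water channel Aqp5 (-0.98) and the mucin Muc5b (-0.28) had overlapping groups. Klk1 varied widely without DOX, at 6.53, -1.96 and 1.74, and stood at -2.45, -1.93 and -1.98 with DOX. Of the 12 tested gland genes, 5 thus had all DOX arrays higher and 4 had all DOX arrays lower. Among all genes tested, 12.7% had all DOX arrays higher, and the share with all DOX arrays lower was not counted. The part of gland tissue in the ER gene values was not tested.

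The B and plasma cell list had 6 of 11 markers tested, 3 with a higher and 3 with a lower mean, and Cd79a, Ms4a1 and Tnfrsf17 were above background on no array. Its mean lay between -0.84 and -0.43 without DOX and between -0.70 and -0.58 with DOX, within the no DOX range. Cd38 was at 0.70 ± 0.23 (SE) and the B cell receptor subunit Cd79b at -0.85 ± 0.29 (SE). Basal keratinocyte markers had a lower mean in 8 of 10 genes (median -0.46), led by Dlk2 (-0.61 ± 0.11, SE) and Ngfr (-0.85 ± 0.16, SE), and their mean lay between 4.39 and 4.67 without DOX and between 3.99 and 4.18 with DOX. Fibroblast markers were lower in 8 of 10 (median -0.13), with Col3a1 at -1.19 ± 0.29 (SE) and Col1a2 at -0.66 ± 0.26 (SE), and a list mean of 2.45 to 2.74 without DOX and 2.12 to 2.77 with DOX. Muscle markers (median 0.06, with Myh1 at 0.33 and Mylpf at 0.34) ranged from 6.73 to 7.53 without DOX and from 7.01 to 7.41 with DOX. Suprabasal keratinocyte markers (median -0.04, with Dsg1a at -0.60 and Sprr1a at 0.52) ranged from 5.61 to 6.48 without DOX and from 5.95 to 6.30 with DOX. None of the cell type lists, the gland list included, held a gene past the threshold (limma). Of their 62 tested genes, 5 were higher and 13 lower at an unadjusted p under 0.05. Among all 26256 genes tested, 4891 were under it, 2375 of them higher. The part of any of these cell types in the ER gene values was not tested.

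**Figure D5:**
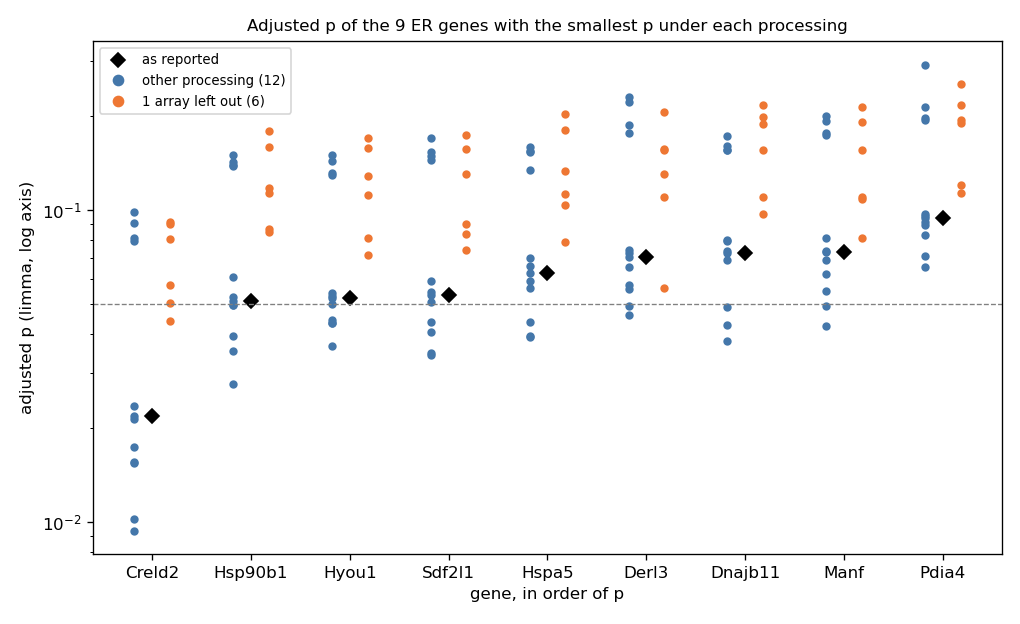
Adjusted p from limma (vertical axis, log scale) of the 9 ER genes with the smallest p (horizontal axis), with diamonds for the processing reported here, blue points for 12 other ways of processing and orange points for leaving out each of the 6 arrays, and a dashed line at 0.05. Creld2 lies between 0.0093 and 0.0985, and the 8 other genes lie above the line as reported, with 7 of them under it in some alternatives.

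Hsp90b1, Hyou1 and Sdf2l1 lay just outside the threshold (adjusted p = 0.0511, 0.0521 and 0.0533). With normexp background correction, and likewise with a variance trend and robust settings, 8 members passed: Hspa5, Hsp90b1, Hyou1, Dnajb11, Sdf2l1, Manf, Creld2 and Derl3. All 8 kept a positive difference under all 18 alternatives, although several of those cannot change the difference by construction. The smallest differences were 1.14 for Hspa5, 0.85 for Hsp90b1, 0.51 for Hyou1, 0.64 for Dnajb11, 1.42 for Sdf2l1, 1.12 for Manf, 1.80 for Creld2 and 1.86 for Derl3.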

How the data were processed

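RNA from tongue tissue of 6 iDek mice, 3 without and 3 with DOX, was read on 1 slide of single-colour Agilent arrays. Per the file headers, the authors' scanner output came from Agilent Feature Extraction 11.5.1.1, with processed signal as a background-corrected intensity for each spot. The deposited series value table equals that signal times 1 factor per array (array medians 102.5, 94.2 and 92.7 without DOX and 90.01, 97.5 and 93.7 with DOX), so its scale is linear and it is not centred by gene, while the origin of the factor is unknown. Control and outlier spots were left out, spots of a probe were averaged, and log2 intensities of the deposited signals were set relative to the 75th percentile of each array. A probe was well above background if over 0.5 of its spots were, and was tested if this held on all 3 arrays of a group. The fit (lmFit, then eBayes) used limma 3.58.1 under R 4.3.3 on 30933 probes with Benjamini-Hochberg adjustment, threshold 0.05, and the script was first tested on simulated data. The brightest tested probe stood for a gene, and further probes are given. Accessions were named through RefSeq (GRCm38.p6), where 28331 probes had 1 symbol and 27350 none. Promoters run from 250 bases before to 50 after each start.

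The members and lists were chosen with earlier results of these data known. All 37 members are accounted for by role, with array values for any past the threshold and up to 6 members of a role with the smallest p. Other lists give counts, the median and up to 2 genes with the smallest p. The array values of Creld1 and the gland genes beyond Lpo and Car6 were added after they were seen. The labels name no litters or cages, so p-values measure the spread between these samples.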

Additional observations from a re-analysis of the deposited data

How the results depend on the processing

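The 37 ER genes kept a positive median difference under all 18 alternatives, from 0.34 to 0.43 under 12 other ways of processing and from 0.32 to 0.49 when each array was left out. The series value table cannot differ by construction, since its factor per array cancels. Changes of the filter on dim probes, the variance trend with robust settings and the replicate block leave the difference of each ER gene as it was. Only the p-values can move under those. Both slide row settings estimate 1 contrast, in which the DOX arm is 1 array (replicate 1). Over all genes and over the ER genes the counts of calls were 91 and 1 with quantile normalization, 103 and 1 with the mean of probes and 106 and 1 with the value table, near those reported. Other counts moved. Over all genes and over the ER genes they were 245 and 8 with normexp (on median signals), 192 and 8 with a variance trend and robust settings, 272 and 6 with array weights, 115 and 4 with median centring, 97 and 3 when all 6 arrays had to be above background, 1 and 0 with no filter on dim probes, 32 and 0 with slide row as a block, and 11 and 0 within slide row 1. With the replicate number as a block they were 0 and 0 (limma, with 4732 genes and 18 members at an unadjusted p under 0.05). Same-numbered arrays had correlations of -0.115, -0.009 and 0.010 in their deviations, within the range of the other pairs (-0.136 to 0.149). These values show no sign of pairing by number but cannot exclude it, and the reported fit used none. Leaving out each array gave 0 to 48 genes and 0 to 1 members. Creld2 lost its call with no filter (adjusted p = 0.0814), with the replicate block (0.0985), with slide row as a block (0.0911) and within row 1 (0.0798). Of 37 members 32 kept their sign throughout. Fkbp2 turned to -0.0060 with normexp, -0.0093 with quantile normalization, -0.0081 with array weights and -0.22 with slide row as a block or within row 1, where Txndc5 was -0.037 and Ssr4 -0.0084. With single arrays left out, Sil1 ranged from -0.29 to 0.10, Edem2 from -0.20 to 0.031 and Fkbp2 from -0.13 to 0.18. Sec11c and Sec61a1 were both 0.20 without DOX replicate 3, and Spcs2 was 0.14 over the mean of its probes. The cause was not tested for any of these. Signals near background limit Hyou1 and Mzb1.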

Other observations

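The ER stress element also lies upstream of 26 genes in the promoter table that are not among the 37 ER genes, of which 11 were tested on the arrays. Of these 11, 6 had a higher mean with DOX and 3 had DOX arrays all above the others, which held for 12.7% of all genes tested. At an unadjusted p under 0.05, 2 were higher and 1 lower, and 0 passed the test (limma). Their median log2 difference was 0.10. Ero1b, an ER oxidase, was at 0.93 ± 0.27 (SE), and Alg12, a mannosyltransferase of N-glycan assembly, at 0.34 ± 0.12 (SE). Pan2, a subunit of an RNA deadenylase, was at -0.35 ± 0.10 (SE), with all DOX arrays lower.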
